A study of Mus musculus with 6 samples.

Results

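The 10 genes described here encode enzymes that shape collagen after it is made: the lysyl oxidases Lox, Loxl1, Loxl2, Loxl3 and Loxl4, the lysyl hydroxylases Plod1, Plod2 and Plod3, and the prolyl 4-hydroxylase alpha subunits P4ha1 and P4ha2. They were taken by name, and all 10 were found among the 54752 genes of the count table. They were measured by RNA-seq, with rRNA depleted, in 6 libraries of the mouse fibroblast line NIH/3T3, derived from embryos, in 3 groups of 2. The vehicle group received PBS for 72 h, the second group TGF-β1 at 1 ng/ml together with DMSO for 72 h, and the third group TGF-β1 at 1 ng/ml together with BI6727 (volasertib, an inhibitor of the mitotic kinase PLK1) at 5 μM for 72 h. TGF-β1 is a growth factor under which fibroblasts become contractile and deposit matrix. No group used here received DMSO without TGF-β1, so the effects of TGF-β1 and of DMSO cannot be told apart in a comparison with vehicle. All 3 groups are 1 cell line, and the labels do not say whether the 2 libraries of a group came from separate cultures, so p-values measure only the spread between these libraries.

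Collagen chains are modified in several steps. Inside the cell, prolyl 4-hydroxylases form the 4-hydroxyproline that holds the triple helix together, and lysyl hydroxylases form hydroxylysine, both with iron and ascorbate as cofactors. PLOD2 is known for hydroxylating the lysines of the collagen telopeptides, the ends outside the helix, a modification found in the hard-to-reverse cross-links of scar tissue. Outside the cell, the copper enzymes of the lysyl oxidase family oxidize lysine and hydroxylysine, and the aldehydes so formed cross-link collagen and elastin.

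The libraries held between 18362378 and 24452153 counts, and 8 of the 10 enzymes were among the 9518 genes that passed the filter on low counts (at least 10 CPM, counts scaled to library size, in more than 3 libraries). Loxl2 and Loxl4 did not pass it. The labelled cell type was checked against its markers: 9 of 9 fibroblast markers passed the filter, with summed levels of 7975 to 10546 normalized CPM, whereas 0 of 13 markers of epithelial, endothelial, immune, fat and muscle cells passed, with sums of 5.50 to 9.03, and Tie1 and Myod1 were at 0 in every library. Of the fibroblast markers, 4 (Col1a1, Col1a2, Col3a1 and Fn1) also belong to the matrix lists described further on. In TGF-β1 with DMSO against vehicle 1 of 9 was called lower, against 2.53% of all tested genes. It was Pdgfra, a receptor of platelet-derived growth factor, at 283 and 265 normalized CPM in vehicle, 96.3 and 54.2 with DMSO, and 79.6 and 77.9 with BI6727. With BI6727 against vehicle 3 of 9 were called lower (Pdgfra, Pdgfrb and Thy1), against 2.96% of all tested genes. The median log2 fold change over the 9 was -0.67 for DMSO against vehicle and -1.003 for BI6727 against vehicle. It was -0.21 for BI6727 against DMSO, with 0 called. In the check of the response to TGF-β1, 6 of 6 tested genes, out of 7 listed, were called higher in TGF-β1 with DMSO than in vehicle, against 2.56% of all genes. Among them was Acta2, the actin of myofibroblasts, at 92.1 and 100 normalized CPM in vehicle, 476 and 473 with DMSO, and 348 and 326 with BI6727. The 2 libraries of TGF-β1 with DMSO stood apart from each other. The SD of the log2 difference between replicates was 0.38 there, 0.16 in vehicle and 0.15 with BI6727. The 9 enzymes with counts in both were higher in DMSO replicate 1 than in DMSO replicate 2, by 1.08-fold for Plod2 up to 1.38-fold for Lox. All of these but Loxl4 were tested, and 51.2% of all tested genes were higher in replicate 1. Loxl2 had 2 counts against 0, under the floor of 3 counts used here. For the comparisons that use the DMSO group, values of the tested enzymes are therefore given also without each of the DMSO libraries.

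Loxl2 had almost no counts, and its sequence limits what can be read from that. It had 0 counts in both vehicle libraries, 2 and 0 with TGF-β1 and DMSO, and 2 and 1 with BI6727, which is at or under the floor of 3 counts used here in every library. The gene (mm10, chr14:69609068-69695834, plus strand) lies near the annotated unprocessed pseudogene Gm21451 (chr14:69390854-69480287, plus strand), which had 0 counts in every library. The Gencode transcripts of the pair shared an identical run of 2348 bases with 0 mismatches, bases 62 to 2409 of the 5316-base Loxl2 transcript, which holds 91.9% of the Loxl2 coding sequence. The first 100 bases of the shared coding sequence (transcript bases 271 to 370, from the start codon) are shown because a read of 50 bases, the length sequenced here, is shorter than the shared run. The capitals mark the length of 1 such read.
Loxl2 coding stretch shared with Gm21451: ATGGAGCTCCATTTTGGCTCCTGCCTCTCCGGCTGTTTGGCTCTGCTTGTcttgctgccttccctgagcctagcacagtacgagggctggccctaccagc
Such a read matches both genes equally. Of all 50-base windows of Loxl2, 45.0% were found in transcripts of other genes, and the other windows were in no other annotated transcript, yet they too gave no more than 5 counts over the 6 libraries. Whether those windows also match the genome at the copy was not tested. No fold change was computed for Loxl2.

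The comparison of TGF-β1 with DMSO against vehicle asked how the enzymes differ between fibroblasts given TGF-β1 and those left without it. Plod2 rose and Loxl1 fell, and no other enzyme was called. A gene was called where edgeR's quasi-likelihood test gave a Benjamini-Hochberg adjusted p below 0.01 over all 9518 genes and the fold change was above 2. That is 1 of 8 tested enzymes called higher, against 2.56% of all tested genes, and 1 of 8 called lower, against 2.53%. With an adjusted p below 0.05 and no minimum for the fold, 4 enzymes were higher (Plod1, Plod2, P4ha1 and P4ha2), against 11% of all genes, and 2 were lower (Lox and Loxl1), against 12%. The libraries of the groups did not overlap for 4 of 8 enzymes that were higher and 2 of 8 that were lower, against 29.8% and 33.1% of all genes. The median log2 fold change over the 8 enzymes was 0.20, and it was -0.0045 over all genes tested. In libraries made from bulk RNA, fewer cells that express a gene and less RNA per cell cannot be told apart.

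**Figure D1:**
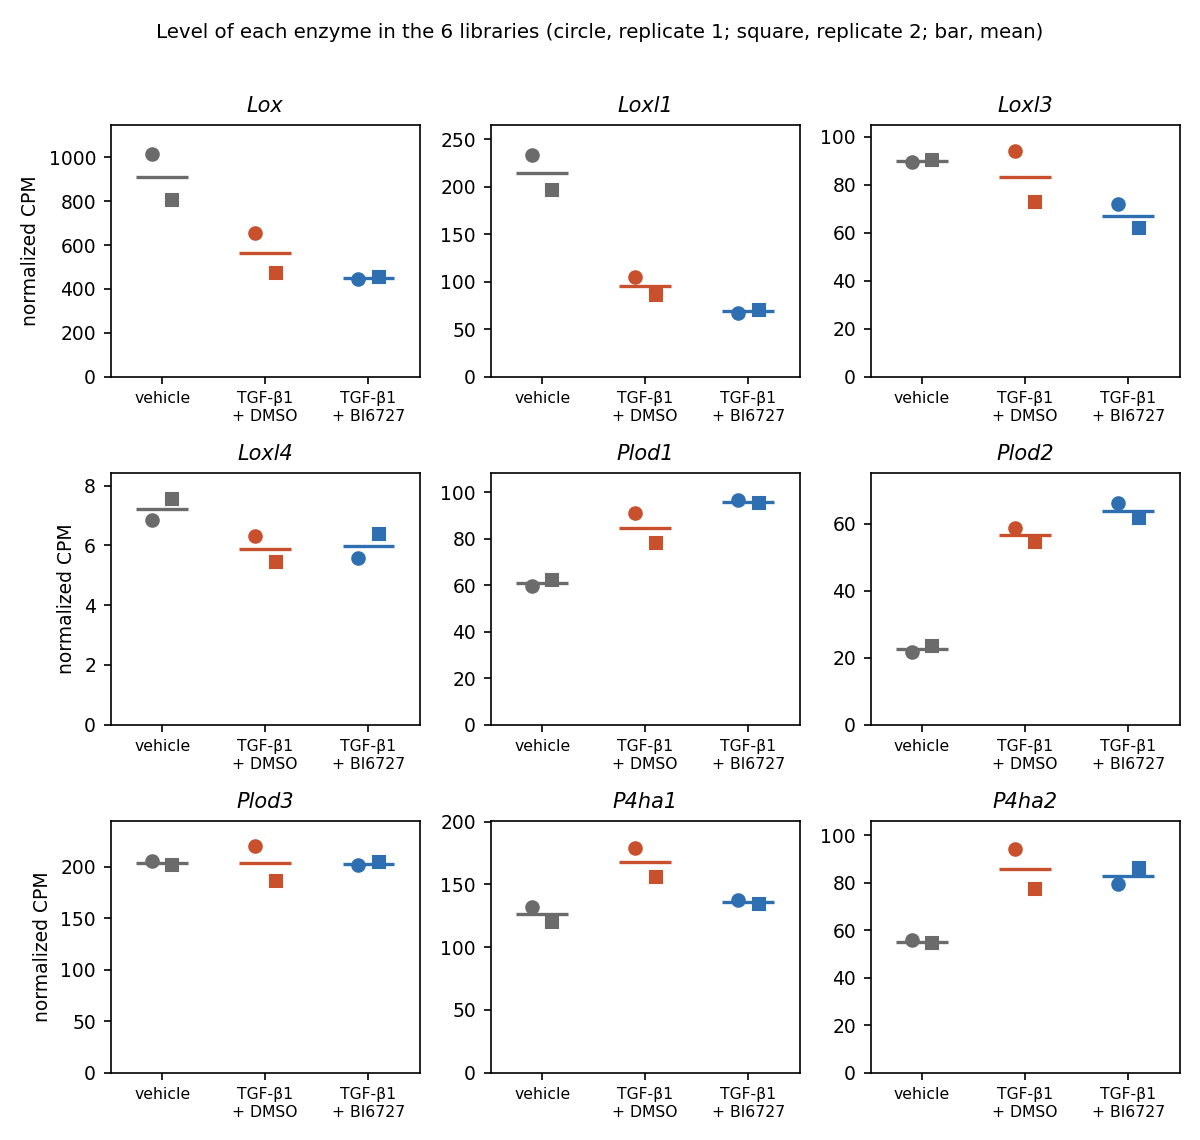
Normalized CPM (counts scaled to library size, linear axis from 0) of 9 enzymes in each of the 6 libraries, with circles for replicate 1, squares for replicate 2 and a bar at the mean of each group of 2. Loxl1 falls from between 196 and 233 in vehicle to between 66.7 and 70.4 with BI6727, Plod2 lies above 54 in all 4 libraries with TGF-β1, and Plod3 lies between 187 and 221 in all libraries.

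Among the lysyl oxidases, Lox, the founding member of the family, was the most abundant. Lox (chromosome 18, minus strand) stood at 1016 and 806 normalized CPM in vehicle, 655 and 473 in TGF-β1 with DMSO, and 444 and 456 in TGF-β1 with BI6727. Both vehicle libraries were above all 4 libraries with TGF-β1. In TGF-β1 with DMSO the log2 fold change against vehicle was -0.69 (95% interval -1.11 to -0.27, SE 0.179), and with edgeR's quasi-likelihood test the adjusted p was 0.0313, which missed the threshold. The size of this difference depended on the DMSO library, since it was -0.95 without DMSO replicate 1 and -0.46 without DMSO replicate 2.

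Loxl1, the family member best known for elastic fibers, fell the most of the 8 enzymes in both comparisons with vehicle. Loxl1 (chr9:58287738-58313186, minus strand) stood at 233 and 196 normalized CPM in vehicle, 105 and 85.6 in TGF-β1 with DMSO, and 66.7 and 70.4 in TGF-β1 with BI6727, so that no groups overlapped. In TGF-β1 with DMSO it was 2.25-fold lower than in vehicle, a log2 fold change of -1.17 (95% interval -1.49 to -0.86, SE 0.135) with an adjusted p of 0.00125 in edgeR's quasi-likelihood test. Leaving out DMSO replicate 1 gave -1.33, and leaving out DMSO replicate 2 gave -1.02. With 1 DMSO library left, the spread of that group is not measured, so no call was read from these values. The call was lost without vehicle replicate 1 (-1.05) and without vehicle replicate 2 (-1.29). Those fits leave 1 vehicle library, so the spread of vehicle is not measured, and fewer of all tested genes were called there too.

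Loxl3 and Loxl4 are the remaining oxidases with counts. Loxl3 (chr6:83034173-83052562, plus strand) stood at 89.5 and 90.3 normalized CPM in vehicle, 94 and 72.9 in TGF-β1 with DMSO, and 72.1 and 62.1 in TGF-β1 with BI6727. The DMSO libraries lay on both sides of vehicle, and the log2 fold change between these groups was -0.11 (95% interval -0.44 to 0.23). Its sign turned to 0.08 without DMSO replicate 2, and it was -0.31 without DMSO replicate 1. Of the exonic bases of Loxl3, 11.6% overlap the opposite-strand gene Htra2, which had 1172 to 1698 counts per library. The strand setting of the counting is not given in the sources used here, so the reads of the overlap cannot be assigned.

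Loxl4 (chr19:42593982-42612813, minus strand) had only 100 to 166 counts per library, or 5.44 to 7.55 normalized CPM. It stood at 6.85 and 7.55 normalized CPM in vehicle, 6.33 and 5.44 with DMSO, and 5.56 and 6.38 with BI6727, so that vehicle lay above the other groups by a small margin. Under a looser filter, edgeR's filterByExpr, its log2 fold change in TGF-β1 with DMSO against vehicle was -0.28 (SE 0.204), with an adjusted p of 0.356 in the quasi-likelihood test.

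Of the 3 lysyl hydroxylases, 1 was called. Plod2, the telopeptide lysyl hydroxylase, showed the largest rise of the 8 enzymes. Plod2 (chr9:92542223-92608428, plus strand) stood at 21.6 and 23.6 normalized CPM in vehicle, 58.6 and 54.5 in TGF-β1 with DMSO, and 66.1 and 61.7 in TGF-β1 with BI6727. All 4 libraries with TGF-β1 were above both vehicle libraries. In TGF-β1 with DMSO it was 2.5-fold higher than in vehicle, a log2 fold change of 1.32 (95% interval 1.05 to 1.6, SE 0.116) with an adjusted p of 0.000412 in edgeR's quasi-likelihood test. It was 1.26 without DMSO replicate 1 and 1.39 without DMSO replicate 2, fits in which the spread of the DMSO group is likewise not measured. The call was lost without vehicle replicate 1 (1.26) and without vehicle replicate 2 (1.39), fits that leave 1 vehicle library and called fewer of all tested genes. The opposite-strand transcript Gm38391 overlaps 6.42% of the exonic bases of Plod2 and had 4 to 20 counts per library.

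Plod1, a hydroxylase of lysines within the helix, had values above vehicle that missed the threshold. Plod1 (chr4:147909753-147936767, minus strand) stood at 59.5 and 62.2 normalized CPM in vehicle, 90.9 and 78.1 in TGF-β1 with DMSO, and 96.6 and 95.2 in TGF-β1 with BI6727. Every library with TGF-β1 was above vehicle, with a log2 fold change of 0.47 (95% interval 0.22 to 0.73, SE 0.108) in TGF-β1 with DMSO and an adjusted p of 0.0203 in edgeR's quasi-likelihood test. The value was 0.35 without DMSO replicate 1 and 0.59 without DMSO replicate 2.

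Plod3, which also carries glycosyltransferase activity, was the lysyl hydroxylase with the highest level and the smallest differences. Plod3 (chr5:136987019-136996648, plus strand) stood at 206 and 202 normalized CPM in vehicle, 221 and 187 in TGF-β1 with DMSO, and 202 and 205 in TGF-β1 with BI6727. All groups overlapped, and the 95% interval of the log2 fold change in TGF-β1 with DMSO against vehicle ran from -0.25 to 0.25, so a 2-fold change in either direction lay outside it. The opposite-strand gene Znhit1, with 557 to 1003 counts per library, and Mir702 overlap 11.9% of the exonic bases of Plod3.

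The 2 prolyl 4-hydroxylase alpha subunits of this set carry the catalytic site of the enzyme. Both were higher in every library of TGF-β1 with DMSO than in vehicle, without a call. The third subunit, P4ha3, is outside the set and was lower, as described further on. P4ha1 (chr10:59323296-59373304, plus strand), the main isoform of most cells, stood at 132 and 120 normalized CPM in vehicle, 179 and 156 with DMSO, and 138 and 134 with BI6727. P4ha2 (chr11:54100095-54131665, plus strand) stood at 55.9 and 54.5 in vehicle, 94.3 and 77.5 with DMSO, and 79.5 and 86 with BI6727. In TGF-β1 with DMSO against vehicle the log2 fold change was 0.41 for P4ha1 (95% interval 0.16 to 0.66, SE 0.107), with an adjusted p of 0.0320 in edgeR's quasi-likelihood test. For P4ha2 it was 0.64 (95% interval 0.35 to 0.93, SE 0.122), with an adjusted p of 0.0106 in the same test, just above the threshold and below the fold of 2. Without DMSO replicate 1 the values were 0.30 for P4ha1 and 0.48 for P4ha2, and without DMSO replicate 2 they were 0.52 and 0.79.

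Promoter sequence from RefSeq (GRCm38.p6, the assembly of mm10) was at hand for 5 of the 10 genes, namely Loxl4, Plod1, Plod3, P4ha1 and P4ha2. The 250 bases before the start were searched on both strands for ACGTG, the core of the element bound by the hypoxia-inducible factors, since prolyl 4-hydroxylases are known hypoxia-response genes. Plod3, P4ha1 and P4ha2 held 1 match each, Loxl4 and Plod1 held 0, and 16.6% of all 32851 promoters of this length held the letters. The P4ha1 and P4ha2 windows are shown because these 2 enzymes of 1 family differed in the same direction, unlike P4ha3, described further on. The capitals mark the match, as ACGTG or as its reverse complement, and it lies 16 bases before the RefSeq start in P4ha1 and 78 bases before it in P4ha2. The RefSeq start of P4ha2 lies downstream of the start of the gene in the count table, so its window falls inside the span given above, while that of P4ha1 ends at the base before the gene.
P4ha1 promoter, chr10:59323046-59323295, plus strand: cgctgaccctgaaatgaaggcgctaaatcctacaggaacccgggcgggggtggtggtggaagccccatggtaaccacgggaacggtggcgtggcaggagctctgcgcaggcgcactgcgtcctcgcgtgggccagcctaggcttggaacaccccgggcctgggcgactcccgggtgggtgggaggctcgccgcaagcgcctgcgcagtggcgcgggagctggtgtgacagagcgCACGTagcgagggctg
P4ha2 promoter, chr11:54100674-54100923, plus strand: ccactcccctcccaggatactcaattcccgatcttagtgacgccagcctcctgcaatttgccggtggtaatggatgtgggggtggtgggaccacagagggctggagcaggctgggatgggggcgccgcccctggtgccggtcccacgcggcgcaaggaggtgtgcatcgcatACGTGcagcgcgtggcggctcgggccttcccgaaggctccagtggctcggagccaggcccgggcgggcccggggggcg
The letters GTCT and CAGA, both part of sites bound by SMAD factors, occurred in 82.9% and 93.3% of all these promoters, respectively. The P4ha1 window held 0 matches to GTCT and 2 to CAGA, and the P4ha2 window 0 and 1. The windows of Plod1 held 4 and 2, those of Loxl4 2 and 2, and those of Plod3 1 and 2. A match in such a short window is a description of the sequence only.

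**Figure D2:**
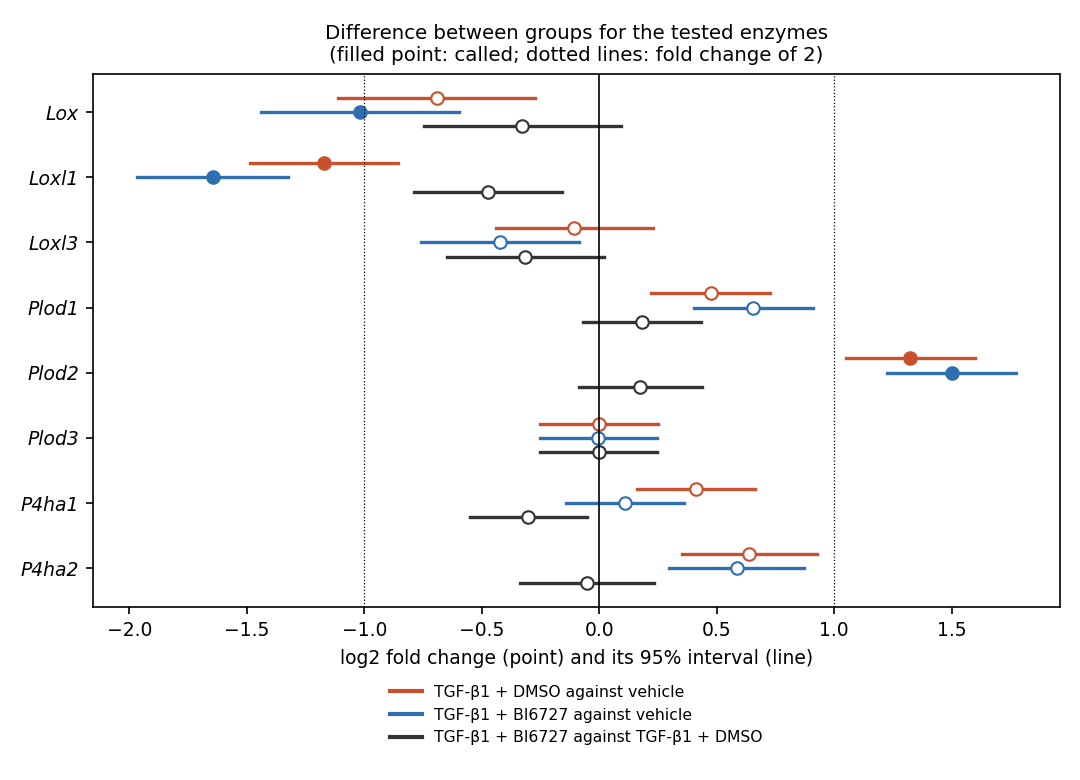
Log2 fold change (points) with its 95% interval (lines) for the 8 tested enzymes in the 3 comparisons, with filled points for the calls and dotted lines at a fold change of 2. Loxl1 and Plod2 are called in both comparisons with vehicle and lie on opposite sides of 0, Lox is called with BI6727 at -1.02, and no point is filled for BI6727 against DMSO.

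The comparison of TGF-β1 with BI6727 against TGF-β1 with DMSO asked which enzymes differ when the PLK1 inhibitor is added to TGF-β1. No enzyme was called. In edgeR's quasi-likelihood test 0 of 8 were called higher, against 0% of all tested genes, and 0 of 8 were called lower, against 0%, also with an adjusted p below 0.05 and no minimum for the fold. At an unadjusted p below 0.05, 2 of 8 enzymes were lower (Loxl1 and P4ha1) and 0 were higher, which is 25% of the enzymes against 6.68% of all genes (430 lower and 206 higher). DESeq2 also called 0 enzymes, and 11 genes lower and 0 higher in all. The groups did not overlap for 2 of 8 enzymes that were higher (Plod1 and Plod2), against 17% of all genes, and for 4 of 8 that were lower (Lox, Loxl1, Loxl3 and P4ha1), against 17.1%. The median log2 fold change was -0.18 over the 8 enzymes and -0.0028 over all genes tested.

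The 3 tested lysyl oxidases all had values below 0 with BI6727. The log2 fold change against TGF-β1 with DMSO was -0.33 for Lox (95% interval -0.75 to 0.09), -0.47 for Loxl1 (95% interval -0.79 to -0.16) and -0.31 for Loxl3 (95% interval -0.65 to 0.02). With edgeR's quasi-likelihood test the adjusted p was 0.764 for Lox, 0.606 for Loxl1 and 0.745 for Loxl3. These values rested on which DMSO library was used. Without DMSO replicate 1 they were -0.07 for Lox, -0.32 for Loxl1 and -0.12 for Loxl3, with adjusted p of 0.608, 0.02 and 0.362 from the same edgeR test. Without DMSO replicate 2 they were -0.56, -0.62 and -0.50, with adjusted p of 0.00145, 0.000591 and 0.0030 from edgeR, all under a fold of 2 and so not called. The lone DMSO library is assumed in these fits to vary like the other groups.

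None of the lysyl hydroxylases passed the test. The log2 fold change of BI6727 against DMSO was 0.18 for Plod1 (95% interval -0.07 to 0.43), 0.18 for Plod2 (95% interval -0.09 to 0.44) and -0.0029 for Plod3 (95% interval -0.25 to 0.25). Without DMSO replicate 1 the value was 0.30 for Plod1 and 0.23 for Plod2, and without DMSO replicate 2 it was 0.06 and 0.11. For Plod2, whose level was 2.5-fold above vehicle with DMSO, the interval holds no decrease beyond 0.09 on the log2 scale. P4ha1 had a log2 fold change of -0.30 (95% interval -0.55 to -0.05) with an adjusted p of 0.692 in edgeR's quasi-likelihood test, and both BI6727 libraries lay below both DMSO libraries. Without DMSO replicate 1 it was -0.20, and without DMSO replicate 2 it was -0.41 (edgeR adjusted p 0.00471, under a fold of 2). P4ha2 overlapped between the groups, at -0.05 (95% interval -0.34 to 0.23).

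Against vehicle, TGF-β1 with BI6727 left Plod2 raised and the abundant oxidases lowered. Each pair of the 3 comparisons shares a group of libraries, so the values are set side by side and are not independent. In edgeR's quasi-likelihood test Plod2 was called higher, 1 of 8 enzymes against 2.34% of all tested genes, and Lox and Loxl1 were called lower, 2 of 8 against 2.96%. With an adjusted p below 0.05 and no minimum for the fold, 3 were higher (Plod1, Plod2 and P4ha2), against 11.3% of all genes, and 2 were lower, against 13.2%. The groups did not overlap for 4 of 8 that were higher and 3 of 8 that were lower, against 38.4% and 38.3% of all genes, and the median log2 fold change was 0.05 over the 8 enzymes and 0.0029 over all genes.

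Loxl1 was 3.13-fold lower in TGF-β1 with BI6727 than in vehicle, a log2 fold change of -1.65 (95% interval -1.97 to -1.33, SE 0.137) with an adjusted p of 0.000284 in edgeR's quasi-likelihood test, beside -1.17 with DMSO. Lox was 2.03-fold lower, at -1.02 (95% interval -1.44 to -0.60, SE 0.180) and an edgeR adjusted p of 0.00720, beside -0.69 with DMSO. With only the vehicle and BI6727 libraries fitted, Lox kept the call, at -1.02 (SE 0.081, edgeR adjusted p 2.02e-09). The SE of the main fit also takes in the spread of the DMSO libraries, which stood further apart. The call of Lox was narrow, with a fold just above 2. It was lost without vehicle replicate 1 (-0.85), vehicle replicate 2 (-1.18), BI6727 replicate 1 (-1) or BI6727 replicate 2 (-1.04). Those fits leave 1 library in a group, whose spread is not measured, and fewer of all tested genes were called there too.

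Plod2 was 2.83-fold higher, at 1.5 (95% interval 1.23 to 1.77, SE 0.117) with an edgeR adjusted p of 0.000209, beside 1.32 with DMSO. Its call was lost without vehicle replicate 1 (1.43), a fit that leaves 1 vehicle library. Plod1 reached 0.66 (95% interval 0.40 to 0.91) with an edgeR adjusted p of 0.00532, and failed the call on its fold alone. P4ha2 stood at 0.59 (95% interval 0.30 to 0.87), close to its 0.64 with DMSO, whereas P4ha1 stood at 0.11 (95% interval -0.14 to 0.36) beside 0.41. Loxl3 stood at -0.42 (95% interval -0.76 to -0.09) beside -0.11, with an edgeR adjusted p of 0.0713. With only the vehicle and BI6727 libraries fitted, Loxl3 was at -0.43 (SE 0.079, edgeR adjusted p 0.000148), under a fold of 2 and so not called. Over all 14 alternatives its value ran from -0.53 to -0.32. Plod3 stood at -0.0040 (95% interval -0.25 to 0.25).

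Levels per length show how the families were made up. In FPKM, the normalized CPM divided by the exonic length in kilobases, the order in vehicle was Lox (189 ± 31.0, mean ± SD, n = 2), Loxl1 (65.1 ± 7.85), Plod3 (45.1 ± 0.681), P4ha1 (30.7 ± 2.03), Loxl3 (19.5 ± 0.124), Plod1 (9 ± 0.282), P4ha2 (8.85 ± 0.165), Plod2 (4.19 ± 0.258) and Loxl4 (1.71 ± 0.117). The ranges of neighbors overlapped only for Plod1 and P4ha2. In TGF-β1 with DMSO, Loxl1 (28.9 ± 4.12) stood below Plod3 (45.0 ± 5.33) and P4ha1 (40.8 ± 4.00), whose ranges overlapped, and Plod2 (10.5 ± 0.540) stood just below Plod1 (12.5 ± 1.34). With BI6727, Lox (93.5 ± 1.77) was still the highest, followed by Plod3 (45.0 ± 0.503), P4ha1 (33.1 ± 0.644) and Loxl1 (20.8 ± 0.798).

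The summed level of the 5 lysyl oxidases was 276 ± 38.6 FPKM in vehicle, 166 ± 34.3 with DMSO and 130 ± 1.16 with BI6727 (mean ± SD, n = 2). Loxl1 made up 23.3% and 24% of that sum in the vehicle libraries, 16.7% and 18.4% with DMSO, and 15.6% and 16.3% with BI6727, while Lox held between 67.4% and 72.3% in all 6 libraries. The sum of the lysyl hydroxylases was 58.3 FPKM in vehicle, 68.0 with DMSO and 71.0 with BI6727 on average, and all 4 libraries with TGF-β1 lay above both vehicle libraries. Within it, the share of Plod2 was 6.86% and 7.52% in vehicle, 14.9% and 16.1% with DMSO, and 17.2% and 16.2% with BI6727, and that of Plod3 went from 77.4% to 66.2% and 63.3% on average. Of the 2 prolyl 4-hydroxylase subunits, P4ha2 held 22.4% of the sum in vehicle, 25.2% with DMSO and 28.6% with BI6727 on average. These shares are descriptions with no test.

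**Figure D3:**
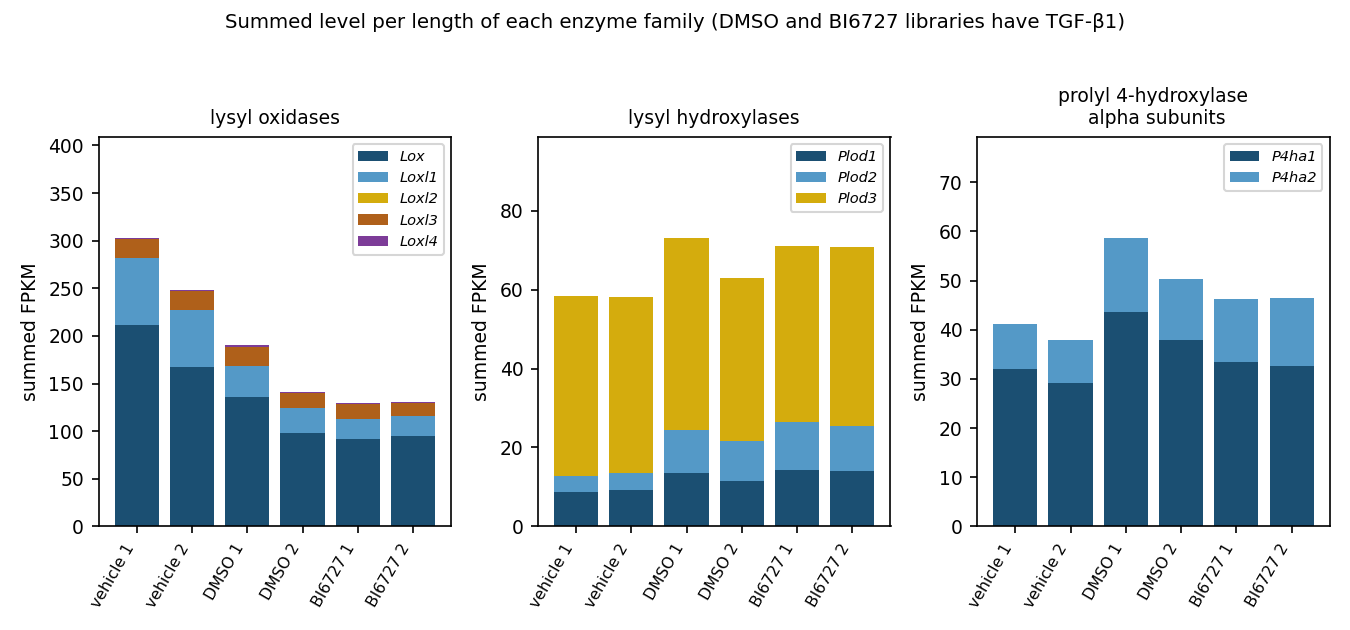
Stacked bars of FPKM (linear axis from 0, a separate scale in each panel) for the lysyl oxidases, the lysyl hydroxylases and the prolyl 4-hydroxylase alpha subunits P4ha1 and P4ha2, 1 bar per library. The oxidase sum is lower in all 4 libraries with TGF-β1 than in vehicle, mostly through Lox and Loxl1, while the Plod2 part of the hydroxylase bar grows from 4.19 FPKM in vehicle to 10.5 and 11.8.

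The genes whose pattern over the 6 libraries was most like that of Plod2 and of Loxl1 were found by the root mean square difference of their log2 values from the vehicle mean. Nearest to Plod2 were Sh3bp2 (0.104), Zfand2a (0.104) and Mdm2 (0.105). Nearest to Loxl1 was Pcolce (0.0545), which encodes the enhancer of procollagen C-proteinase, followed by Gm6665 (0.0973) and Pmp22 (0.102). Pcolce also belongs to the list of procollagen processing genes described with the rest of the pathway.

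Of 17 tested out of 19 other genes of collagen modification and folding, 1 was called higher in TGF-β1 with DMSO than in vehicle, against 2.56% of all genes, and 0 were called lower, against 2.53%. It was Creb3l1, a transcription factor of the secretory pathway that drives collagen genes. At an adjusted p below 0.05 with no minimum for the fold, 8 of 17 passed, as 2186 of all 9518 genes did. The groups did not overlap for 5 that were higher and 9 that were lower (82.4%, against 62.9% of all genes), with a median log2 fold change of -0.18. Creb3l1 stood at 7.84 and 6.55 normalized CPM in vehicle, 41.7 and 29.1 with DMSO, and 22.1 and 26.4 with BI6727, a log2 fold change of 2.30 (SE 0.221) with an edgeR adjusted p of 0.000579. P4ha3, the third alpha subunit of prolyl 4-hydroxylase, was lower in every library with TGF-β1 than in vehicle. It stood at 35.4 and 33.6 normalized CPM in vehicle, 22.1 and 16.1 with DMSO, and 12.9 and 9.44 with BI6727, and was called lower only in the BI6727 comparison with vehicle (-1.63, SE 0.212, edgeR adjusted p 0.00201), beside -0.85 with DMSO (adjusted p 0.0246).

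The processing genes act on procollagen and on the proenzyme of lysyl oxidase. Of 3 tested out of 8, 1 was called higher and 1 lower in TGF-β1 with DMSO than in vehicle, against 2.56% and 2.53% of all genes. Bmp1, the proteinase that removes the procollagen C-propeptide and activates LOX, stood at 93.9 and 84.3 normalized CPM in vehicle, 237 and 188 with DMSO, and 215 and 214 with BI6727, a log2 fold change of 1.25 (SE 0.132, edgeR adjusted p 0.000845) with DMSO and 1.27 with BI6727. Pcolce stood at 573 and 485 in vehicle, 247 and 226 with DMSO, and 161 and 167 with BI6727, at -1.16 (SE 0.114, edgeR adjusted p 0.000635) and -1.69. So the proteinase and its enhancer differed in opposite directions. Adamts14, an N-propeptidase, had, among the 3 genes that passed the filter, the next largest log2 fold change of BI6727 against DMSO after Pcolce (-0.53), at 0.41 with an edgeR adjusted p of 0.745.

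Tll1 and Adamts2, named here after their values were seen, were under the filter on low counts. That filter takes CPM on each library's total count, so a normalized CPM of 10.0 can still fall below it. Tll1, a relative of Bmp1, had 2 and 4 counts in the vehicle libraries and 170 to 359 in the libraries with TGF-β1. Adamts2, the main procollagen N-propeptidase, stood at 57.9 and 56.2 normalized CPM in vehicle, 18.2 and 9.97 with DMSO, and 10.0 and 8.49 with BI6727. Under filterByExpr its log2 fold change in TGF-β1 with DMSO against vehicle was -2.01 (SE 0.252, edgeR adjusted p 0.000957).

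Among the fibrillar collagens, the substrates of these enzymes, 3 of 8 tested were called higher in TGF-β1 with DMSO than in vehicle, against 2.56% of all genes. Of the 8, 0 were called lower, against 2.53%, and the median log2 fold change was 0.76. Those called were the minor chains Col5a3 (4.56, SE 0.322), Col11a2 (1.65, SE 0.227) and Col27a1 (1.41, SE 0.163), with edgeR adjusted p of 0.000161, 0.00274 and 0.00129. Col5a3 stood at 2.65 and 4.73 normalized CPM in vehicle, 109 and 67.2 with DMSO, and 68.0 and 69.9 with BI6727. The most abundant chain, Col1a2, was lower, at 1958 and 1724 in vehicle, 1440 and 872 with DMSO, and 918 and 859 with BI6727, without a call. Col1a1 stood at 442 and 380, 859 and 447, and 411 and 416 in the same order. The summed level of the 11 listed collagens was 2949 and 2646 in vehicle, 3443 and 2003 with DMSO, and 1991 and 1931 with BI6727. Among the 8 that passed the filter, the largest values of BI6727 against DMSO were those of Col3a1 (-0.89, edgeR adjusted p 0.677) and Col5a2 (-0.67, edgeR adjusted p 0.583), neither called. The DMSO libraries held Col3a1 at 390 and 183 normalized CPM, and those with BI6727 at 158 and 152.

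The elastic fiber and scaffold proteins that bind lysyl oxidases had 1 call in each direction among 6 tested out of 8 in TGF-β1 with DMSO against vehicle. Of all genes, 2.56% were called higher there and 2.53% lower. Fbln5, the fibulin that tethers LOXL1 to elastic fibers, fell from 392 and 370 normalized CPM in vehicle to 138 and 100 with DMSO, and stood at 72.1 and 68.7 with BI6727 (-1.68, SE 0.153, edgeR adjusted p 0.000458, and -2.44 for BI6727 against vehicle). Postn, periostin, a matrix scaffold that brings BMP1 to the fiber, stood at 9.04 and 5.92 in vehicle, 71.6 and 26.8 with DMSO, and 14 and 11.3 with BI6727. It was called higher with DMSO (2.72, SE 0.460, edgeR adjusted p 0.00651), and its log2 fold change of BI6727 against DMSO, -1.96, had an adjusted p of 0.569. Elastin itself, Eln, had 0 counts in every library and so did not pass the filter.

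**Figure D4:**
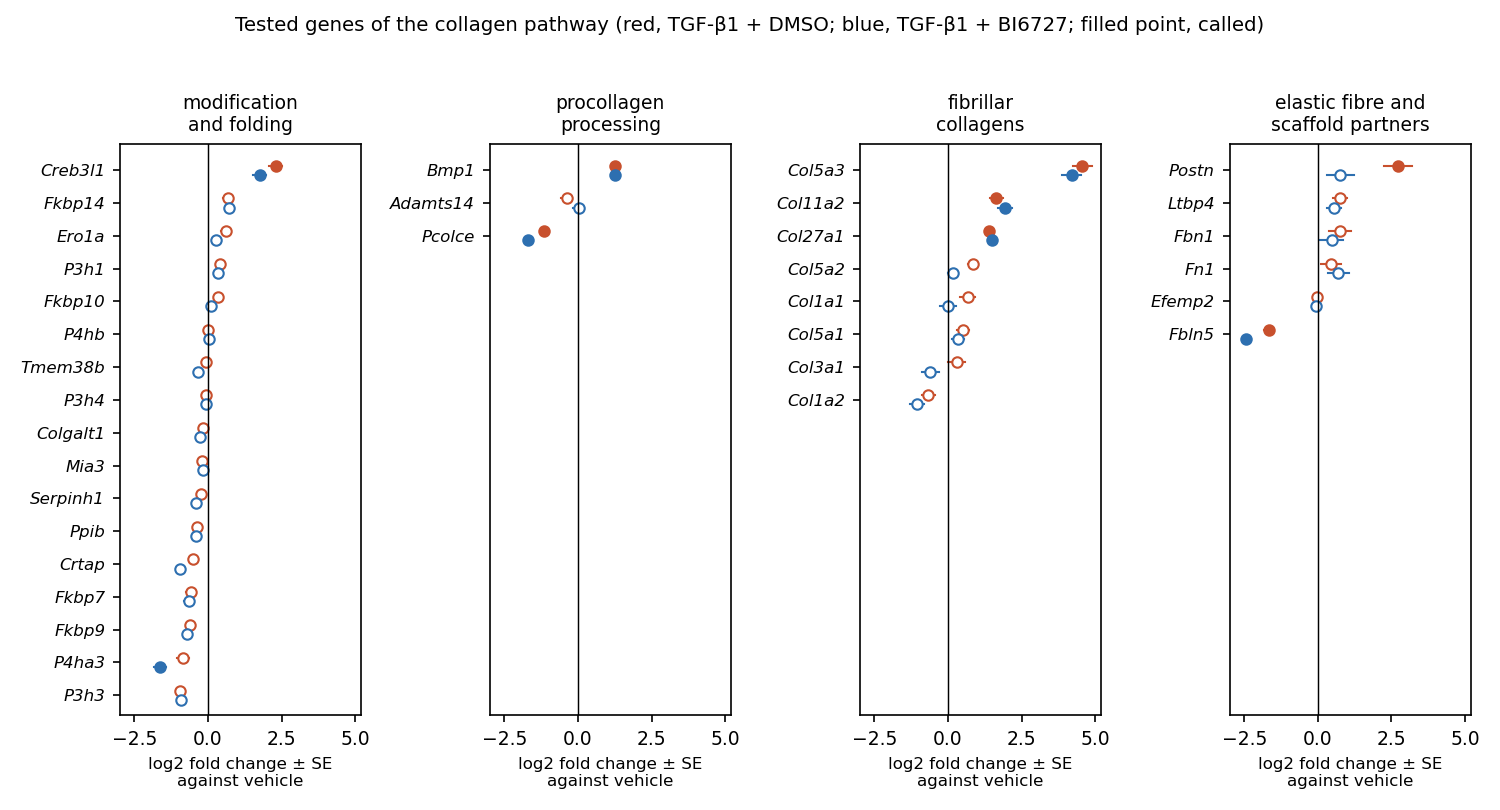
Log2 fold change against vehicle (points, with lines of 1 SE to each side) of the tested genes in 4 lists of the collagen pathway, for TGF-β1 with DMSO in red and TGF-β1 with BI6727 in blue, with filled points for the calls. Of the 17 modification and folding genes 6 lie above 0 and 11 below it with DMSO, Bmp1 and Pcolce lie on opposite sides, Col5a3 reaches 4.56, and Fbln5 lies at -1.68 and -2.44.

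Genes that supply the cofactors of the enzymes showed 1 call. Of 9 tested out of 11 in the list of copper, iron and ascorbate supply, 1 was called lower in TGF-β1 with DMSO than in vehicle, against 2.53% of all genes. It was Cp, the copper-carrying ferroxidase ceruloplasmin, at 289 and 249 normalized CPM in vehicle, 58.5 and 37.9 with DMSO, and 42.3 and 44.8 with BI6727 (-2.48, SE 0.201, edgeR adjusted p 0.00029). Atp7a, the pump that loads copper onto lysyl oxidases, stood at 14.1 and 16.0 in vehicle, 20.9 and 11.0 with DMSO, and 20.0 and 18.2 with BI6727, with a log2 fold change of BI6727 against DMSO of 0.26 and overlapping groups. Slc23a2, an ascorbate transporter, stood at 0.15 in that comparison.

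Hypoxia-response genes were examined because several of the enzymes belong to that response. Of 10 tested out of 16, 9 had a log2 fold change above 0 in TGF-β1 with DMSO against vehicle, as 4714 of all 9518 genes did, with a median of 0.47. Vegfa, the vascular growth factor, was the only one called, 1 of 10 against 2.56% of all genes called higher. For BI6727 against DMSO 9 of 10 were below 0, with a median of -0.25, and the groups did not overlap for 6 that were lower, against 17.1% of all genes, with 0 called. Vegfa stood at 97 and 103 normalized CPM in vehicle, 609 and 596 with DMSO, and 581 and 603 with BI6727 (2.59, SE 0.100, edgeR adjusted p 2.71e-05). Pdk1, a kinase that holds pyruvate back from the mitochondria, stood at 45.0 and 46.0 in vehicle, 43.3 and 26.0 with DMSO, and 15.7 and 16.2 with BI6727. It was called lower with BI6727 against vehicle (-1.51, SE 0.230, edgeR adjusted p 0.00391), and its value against DMSO was -1.11, followed in that comparison by Bnip3 at -0.79, neither called. The part of this response in the levels of Plod2, P4ha1 or P4ha2 was not tested.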

How the data were processed

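Reads of single-end 50-base libraries, made from total RNA after removal of rRNA, were processed by the authors, who mapped them to mm10 with Subjunc and counted them on Gencode genes with featureCounts (Subread 1.6.4 in the submitters' processing notes). The deposited values are raw counts per gene, with no normalization. How reads were treated by strand or when they map to several places is not given in the sources used here.

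Samples were grouped from their labels. The 6 libraries were fitted in 1 model without covariates (edgeR 4.0.16, R 4.3.3, TMM scaling, quasi-likelihood test, 3 residual degrees of freedom), over the genes that reached 10 CPM in more than 3 libraries, with Benjamini-Hochberg adjustment over the 9518 genes. A call needs a fold change above 2 at an adjusted p below 0.01. Normalized CPM are counts divided by the TMM-scaled total of the genes tested, FPKM divide these by the exonic length in kilobases of the deposited table, and intervals are 95% intervals of the fit. With 2 libraries per group, an exact permutation test of a single value cannot go below 0.333, so none was used. At these depths, of 18362378 to 24452153 counts, a count of 0 allows up to 3 counts, and this floor covers counting error only. The replicates of each group differed by more than counting noise (chi-square per degree of freedom of 5.09 or more), so none was taken for a repeat deposit. DESeq2 1.42.0, other filters and scalings, a replicate block, offsets removing each library's trend on gene length (lowess, span 0.3) and leaving out each library were the alternatives, and a crossed block was added after the data were seen. The test was tested on simulated data with known changes.

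The members and the gene lists were chosen with earlier results of these data known. Named were all members, up to 4 genes per list called in TGF-β1 with DMSO against vehicle, and the 2 per list with the largest difference between BI6727 and DMSO. Coordinates are those of mm10 in the deposited table, and transcripts those of Gencode M21. Other experiments of the study were not analysed here.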

Additional observations from a re-analysis of the deposited data

How the results depend on the processing

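With an adjusted p below 0.05 and no minimum for the fold, 4 enzymes were higher and 2 lower in TGF-β1 with DMSO against vehicle, in place of 1 and 1, and 3 were higher with BI6727 against vehicle in place of 1. With length offsets 1 enzyme, in place of 2, was lower with BI6727 against vehicle, since Lox came to -0.997 on the log2 scale. With a library left out, 1 group holds 1 library and its spread is not measured. No enzyme gained a call in such fits. For DMSO against vehicle, calls were lost when either vehicle library was left out. For BI6727 against vehicle, some calls were lost when either vehicle or either BI6727 library was left out. Fewer of all tested genes were called in those fits too. For BI6727 against DMSO 0 enzymes were called under any alternative.

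The replicate number as a block left every call of an enzyme as it was. The deviations of same-numbered libraries correlated at -0.11 (vehicle and DMSO), -0.26 (DMSO and BI6727) and 0.05 (vehicle and BI6727), and nothing in the labels ties the numbers to a shared batch. Over all genes the block called 224 higher and 229 lower for DMSO against vehicle, the crossed pairing 246 and 245, against 244 and 241 without, and both called 0 for BI6727 against DMSO.

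The sign of Plod3 changed with the setting. For DMSO against vehicle it was 0.0111 with DESeq2, 0.0111 with DESeq2's size factors, 0.0083 with filterByExpr, 0.0098 with at least 10 counts in total, 0.012 with only the 2 groups compared and 0.0169 with length offsets. For BI6727 against DMSO it was 0.0052 with filterByExpr, 0.0025 with 10 counts in total, 2e-04 with only the 2 groups and 0.001 with the replicate block. For BI6727 against vehicle it was 0.0134, 0.0123 and 0.0097 with filterByExpr, 10 counts in total and length offsets. With a library left out, it ran from -0.13 to 0.13 for DMSO against vehicle, -0.13 to 0.13 for BI6727 against DMSO and -0.0194 to 0.0076 for BI6727 against vehicle, Loxl3 from -0.3067 to 0.0755 for DMSO against vehicle, and P4ha2 from -0.20 to 0.10 for BI6727 against DMSO. Of 336 alternative values of the enzymes' fold changes, 303 kept direction and side of the threshold, 23 changed sign and 10 lost a call. Most of the 336 belong to results not called in the main fit, so their staying under the threshold says little.

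The looser filters tested more genes and called more, 402 higher and 472 lower with filterByExpr in place of 244 and 241 for DMSO against vehicle. Of the 17 other pathway and marker genes called in that comparison, 7 kept the call in all 14 alternatives, among them Cp, Col5a3 and Vegfa, and of 19 for BI6727 against vehicle 9 did. Postn lost it with only the 2 groups compared and without either vehicle or either BI6727 library.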
